A study of Saccharomyces cerevisiae with 24 samples.

Results

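The yapsins of the budding yeast Saccharomyces cerevisiae are a family of aspartyl proteases with 6 members, YPS1, MKC7, YPS3, YPS5, YPS6 and YPS7. They were taken by their names from a table of read counts for 7126 genes, and all 6 were found and passed the filter on low counts that left 6253 genes for testing. Most yapsins are held at the plasma membrane and in the cell wall by a glycosylphosphatidylinositol (GPI) lipid anchor. They cut other proteins after basic residues, and some came to notice because extra copies make up for loss of the Golgi protease Kex2. By trimming or releasing proteins at the cell surface, among them wall-building enzymes and a signalling mucin, yapsins take part in keeping the wall intact.

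The groups were cnb1Δ cells and wild type (WT) cells, each at 0 h (before addition) and after 12, 48 and 72 h in 200 mM CaCl2, with 3 RNA sequencing libraries in each of the 8 groups. Both strains were haploids of mating type a in the BY4741 background, with the alleles his3delta1, ura3delta0, leu2delta0 and lys2delta0. Both also carried a hygromycin marker and a TEFp-GFP(Y66F) construct on chromosome VI, and in the mutant cnb1delta::KanMx replaced CNB1. The CNB1 product is the regulatory subunit of the phosphatase calcineurin, which calcium activates. Cultures grew in synthetic medium with ammonium chloride and were diluted every 12 h. No culture without CaCl2 was sampled at the later times, so CaCl2 and time in culture cannot be told apart. The labels name triplicate time courses and do not say whether a strain was more than 1 isolate, so the p-values measure the spread between these libraries.

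The libraries held 18843220 to 22250806 counts. CNB1 had 0 to 23 counts in cnb1Δ libraries and 996 to 3320 in WT libraries, and URA3 and LEU2 had 0 in all 24. The mating type a receptor gene STE2 had 2535 to 25915 counts, and MF(ALPHA)1, which mating type alpha cells use, 0 to 9. The other mating type alpha genes looked at were not all near 0. MF(ALPHA)2 had 0 to 12 counts, STE3 2 to 129 and SAG1 536 to 811. The 4 libraries numbered replicate 1 at 48 h and 72 h, from both strains, departed from their group means alike, with correlations across genes of 0.569 to 0.695 over 6 pairs, so the late changes of the members are also given without them.

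Levels within a gene are depth-scaled counts (CPM), adjusted by the trimmed mean of M-values (TMM). Changes are log2 fold changes ± SE from edgeR, with n = 3 libraries in each group, and genes with an adjusted p under 0.05 over all those tested are said to be called. The comparisons of 1 strain with its own 0 h group share those 0 h libraries, and those of 72 h with 12 h use libraries of both. In WT all 6 members were called at 72 h, and 64.5% of all genes tested were called there too. Between the strains 4 members were called at 72 h, where 9.12% of all genes were. YPS1 and YPS3 were lower in cnb1Δ than in WT, YPS5 and YPS6 were higher, and MKC7 and YPS7 were not called. Reads of YPS5 and YPS6, which are alike in sequence, cannot be told apart with certainty, so these may not be separate calls. As the RNA came from whole cultures, fewer cells with a transcript and less of it per cell cannot be told apart.

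**Figure D1:**
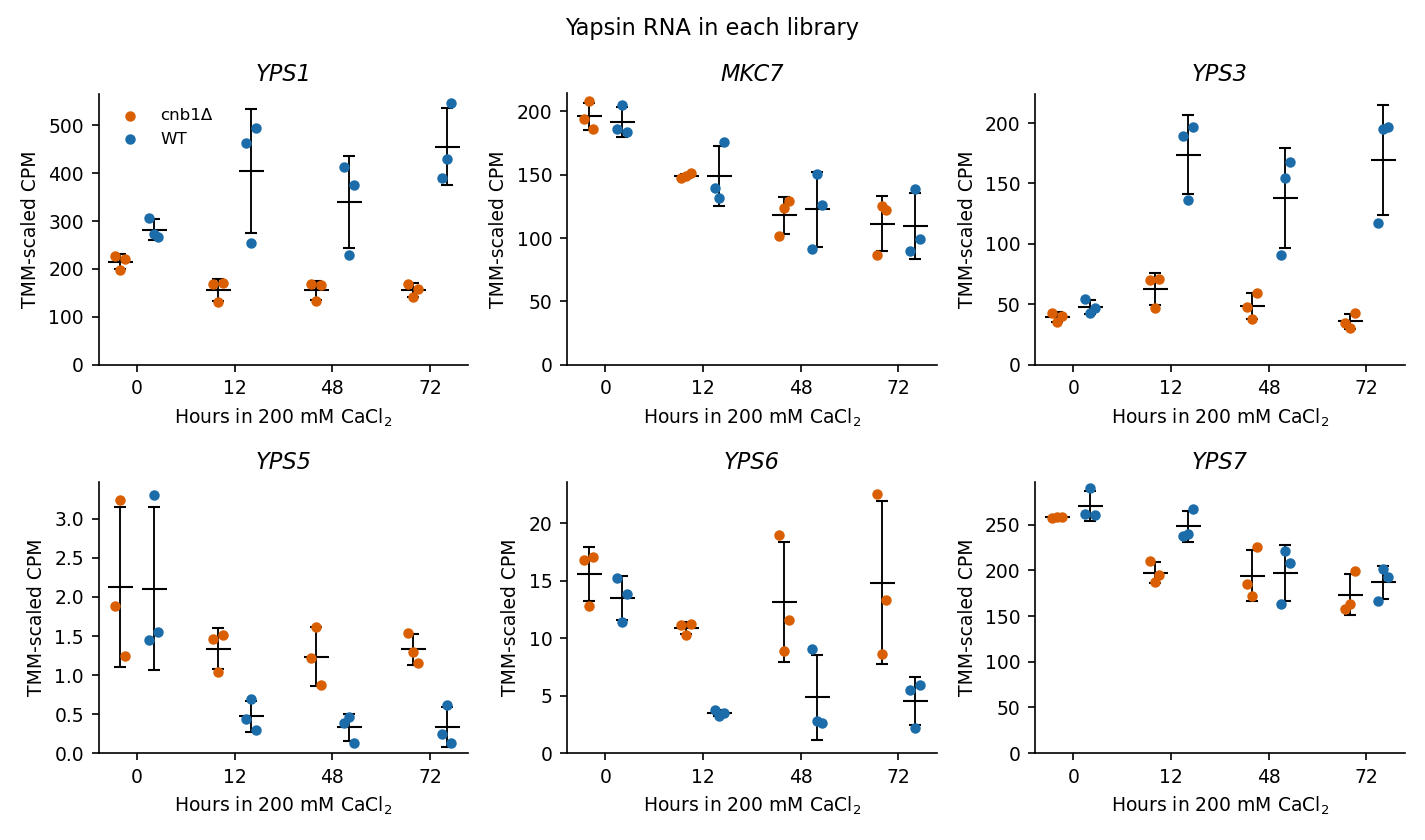
TMM-scaled CPM of each yapsin gene (vertical axes) against hours in 200 mM CaCl2 (horizontal axes) in cnb1Δ (orange) and WT (blue). Points are libraries, long bars are means and whiskers are SD (n = 3). YPS3 averaged 36.0 CPM in cnb1Δ and 170 CPM in WT at 72 h, whereas MKC7 averaged 111 and 109 CPM there.

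YPS1 and YPS3 encode GPI-anchored yapsins and lie next to each other on the minus strand of chromosome XII. YPS1 (YLR120C) runs from 386511 to 388220 and YPS3 (YLR121C) from 388744 to 390270, 523 bases apart, in build R64. No annotated gene overlaps them or any other member, and each member has 1 coding block without an intron. Because both genes stood apart between the strains, the start regions of both are shown, 250 bases before and 50 after the first coding base, read from the RefSeq genome (R64), minus strand, at chrXII:388171-388470 for YPS1 and chrXII:390221-390520 for YPS3. The capitals in YPS3 mark a match to the SBF motif on the other strand, and YPS1 has no match to a motif searched.
YPS1: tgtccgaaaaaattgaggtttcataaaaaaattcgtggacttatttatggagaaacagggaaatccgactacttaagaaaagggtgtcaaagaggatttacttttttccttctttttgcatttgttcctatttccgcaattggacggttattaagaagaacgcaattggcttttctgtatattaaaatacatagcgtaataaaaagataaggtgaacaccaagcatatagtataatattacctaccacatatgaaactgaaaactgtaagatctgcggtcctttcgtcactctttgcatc
YPS3: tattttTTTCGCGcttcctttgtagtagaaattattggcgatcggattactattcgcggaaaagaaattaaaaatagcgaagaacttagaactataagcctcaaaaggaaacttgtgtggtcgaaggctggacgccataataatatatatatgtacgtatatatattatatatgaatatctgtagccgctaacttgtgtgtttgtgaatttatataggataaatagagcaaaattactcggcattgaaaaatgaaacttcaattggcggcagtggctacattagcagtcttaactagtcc

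Over the 254 aligned bases of these windows, with 92 gap bases, YPS1 and YPS3 were 59.4% identical, and their coding sequences were 62.9% identical over 1438 aligned bases. The motifs searched on both strands were the calcineurin-dependent response element of Crz1 (CDRE, GNGGCGCA or GNGGCTCA), the Rlm1 motif, SBF (CGCGAAA) and the stress response element (STRE, AGGGG). Of the same windows at 6001 genes, 1.9% held a CDRE, 1.0% an Rlm1 motif, 3.6% an SBF motif and 21.6% an STRE. Among the 6 members the only matches were SBF in YPS3, at −244 from the start, and a CDRE in YPS7, 26 bases inside the coding sequence. A match is a description of letters, and no match says only that these letters are not in the window.

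In cnb1Δ YPS1 stood at 228, 197 and 221 CPM at 0 h, then at 169, 131 and 171 (12 h), 168, 133 and 166 (48 h) and 169, 141 and 158 (72 h). In WT it stood at 307, 273 and 267 CPM at 0 h, then at 463, 255 and 494 (12 h), 413, 230.2 and 375 (48 h) and 391, 430.2 and 546 (72 h). Each cnb1Δ library in CaCl2 was below every cnb1Δ library at 0 h, and each WT library at 72 h was above every WT library at 0 h. Replicate 2 of WT at 12 h and at 48 h lay below all WT libraries at 0 h. In order of the means the 4 WT groups came first (456 CPM at 72 h, 404 at 12 h, 339 at 48 h and 282 at 0 h), and neighbours among them overlapped. Then came cnb1Δ at 0 h (215 CPM), apart from its neighbours on either side, and the other cnb1Δ groups at 156 to 157 CPM, which overlapped.

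In cnb1Δ the changes of YPS1 were −0.46 ± 0.21, −0.47 ± 0.21 and −0.46 ± 0.21 at 12, 48 and 72 h (edgeR adjusted p = 0.0902, 0.0687 and 0.068), and DESeq2 called those at 48 h and 72 h (adjusted p = 0.0403 and 0.0397). When the compared groups alone were fitted all 3 were called (edgeR adjusted p = 0.00784, 0.00509 and 0.00397). In WT it rose at 72 h by 0.69 ± 0.21, or 1.61-fold (edgeR adjusted p = 0.00797). At 12 h its change was 0.52 ± 0.21 (edgeR adjusted p = 0.0516). Blocked by replicate number it was 0.46 and called (edgeR adjusted p = 0.0254), as it was with DESeq2 (adjusted p = 0.0472). Leaving out 1 library placed it between 0.35 without replicate 3 of WT at 12 h (edgeR adjusted p = 0.226) and 0.76 without replicate 2 (edgeR adjusted p = 0.00425), and it was also called without replicate 1 at 0 h (edgeR adjusted p = 0.0498). At 48 h it was 0.27 ± 0.21 (edgeR adjusted p = 0.282), with 0.10 without replicate 1 of WT at 48 h (edgeR adjusted p = 0.719) and 0.48 without replicate 2 (edgeR adjusted p = 0.0467). With the 4 late replicate 1 libraries left out, the changes at 48 h and 72 h were −0.54 and −0.53 in cnb1Δ (edgeR adjusted p = 0.0537 for both), and 0.12 and 0.79 in WT (edgeR adjusted p = 0.65 and 0.00498).

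In cnb1Δ YPS3 stood at 42.9, 35.4 and 39.9 CPM at 0 h, then at 69.7, 46.9 and 70.7 (12 h), 48.0, 37.9 and 59.1 (48 h) and 34.9, 30.2 and 42.8 (72 h). In WT it stood at 54.0, 42.9 and 46.8 CPM at 0 h, then at 189, 136 and 197 (12 h), 91.0, 154 and 168 (48 h) and 117, 195 and 197 (72 h). All 9 WT libraries in CaCl2 lay above all 15 other libraries. Replicate 1 was the lowest WT library at 48 h and at 72 h. In order of the means WT at 12 h (174 CPM), 72 h (170 CPM) and 48 h (138 CPM) came first and overlapped one another, and the other groups followed at 62.4 CPM or less.

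YPS3 rose in cnb1Δ at 12 h, by 0.66 ± 0.24 (edgeR adjusted p = 0.0312), and was not called there at 48 h (0.30 ± 0.24, edgeR adjusted p = 0.304) or 72 h (−0.13 ± 0.24, edgeR adjusted p = 0.648; 0.15 under total count scaling). It rose in WT at all 3 times, by 1.86 ± 0.24 at 12 h (3.63-fold, edgeR adjusted p = 6.94e-06), 1.52 ± 0.24 at 48 h (2.88-fold, edgeR adjusted p = 2.27e-05) and 1.82 ± 0.24 at 72 h (3.54-fold, edgeR adjusted p = 2.78e-06). The changes at 48 h and 72 h without the 4 late replicate 1 libraries were 0.29 and −0.12 in cnb1Δ (edgeR adjusted p = 0.234 and 0.638), and 1.77 and 2.03 in WT (edgeR adjusted p = 1.22e-06 and 2.3e-07). In cnb1Δ the 72 h level was below that at 12 h, with a change of −0.80 ± 0.24 at 72 h against 12 h (edgeR adjusted p = 0.0257). In WT the same change was −0.04 ± 0.23 (edgeR adjusted p = 0.917). The 12 h call in cnb1Δ ended without replicate 1 or 3 at 12 h (edgeR adjusted p = 0.0982 and 0.103) or replicate 2 or 3 at 0 h (0.0987 and 0.0697). The call of 72 h against 12 h ended without replicate 1 or 3 at 12 h (edgeR adjusted p = 0.0913 and 0.101) or replicate 1 or 2 at 72 h (0.0841 and 0.0892).

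**Figure D2:**
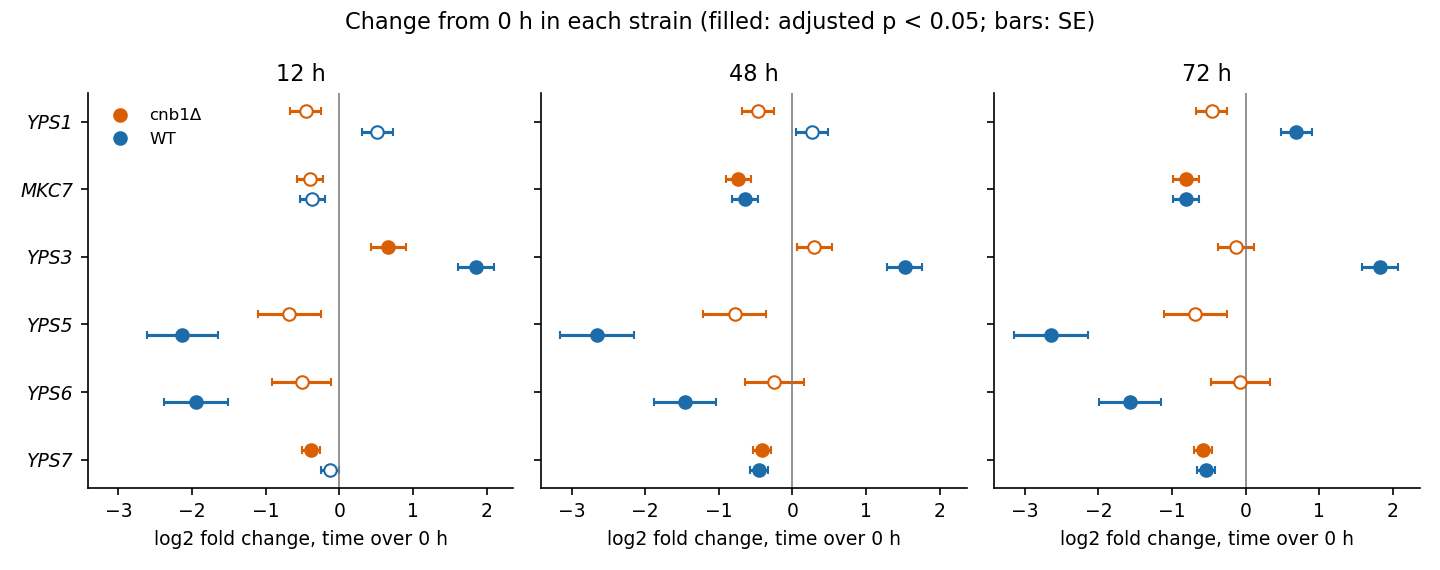
Log2 fold change of each yapsin gene against 0 h (horizontal axes) in cnb1Δ (orange) and WT (blue) at 12, 48 and 72 h. Bars are SE, filled points have an edgeR adjusted p under 0.05 and open points do not; at 72 h YPS3 lies at −0.13 and YPS5 at −0.68 in cnb1Δ, against 1.82 and −2.64 in WT.

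MKC7 and YPS7 lie apart from the others on chromosome IV, minus strand. MKC7 (YDR144C, 744311 to 746101) is the closest relative of YPS1 among the members, with 64.1% coding identity over 1626 bases. YPS7 (YDR349C, 1172386 to 1174176) has 57.7% to 58.9% coding identity with the other long members. Both encode GPI-anchored yapsins, and MKC7 was found as a multicopy suppressor of kex2. The RNA of both was lower at 48 h and 72 h than at 0 h in both strains.

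In cnb1Δ MKC7 stood at 194, 208 and 186 CPM at 0 h, then at 148, 149 and 151 (12 h), 102, 123 and 129 (48 h) and 86.6, 125 and 123 (72 h). In WT it stood at 186, 205 and 184 CPM at 0 h, then at 139, 132 and 176 (12 h), 91.6, 150.3 and 126 (48 h) and 90.0, 139 and 99.1 (72 h). In both strains all libraries in CaCl2 were below all at 0 h, and the cnb1Δ and WT libraries overlapped at each time. Replicate 1 was the lowest library of both strains at 48 h and at 72 h.

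MKC7 fell in cnb1Δ, with changes of −0.73 ± 0.18 at 48 h and −0.82 ± 0.18 at 72 h (edgeR adjusted p = 0.0017 and 0.000607). In WT it fell too, with −0.64 ± 0.18 and −0.81 ± 0.18 (edgeR adjusted p = 0.00363 and 0.000522). When the 4 late replicate 1 libraries were omitted, these were −0.64 and −0.67 in cnb1Δ and −0.45 and −0.69 in WT, all called (edgeR adjusted p = 0.000242 to 0.00729). At 12 h the change was −0.39 ± 0.18 in cnb1Δ (edgeR adjusted p = 0.0752) and −0.36 ± 0.18 in WT (edgeR adjusted p = 0.0929). Blocked by replicate number the WT change at 12 h was −0.37 and called (edgeR adjusted p = 0.0151), as it was without replicate 3 of WT at 12 h (edgeR adjusted p = 0.0406). At 72 h against 12 h it stood at −0.42 ± 0.18 in cnb1Δ and −0.44 ± 0.18 in WT (edgeR adjusted p = 0.0907 and 0.0699), and in WT was called without replicate 2 at 72 h (−0.65, edgeR adjusted p = 0.0156) and with DESeq2 (adjusted p = 0.0492). In a fit of the compared groups alone the 12 h changes were called in cnb1Δ (edgeR adjusted p = 0.000945) and WT (0.0222).

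In cnb1Δ YPS7 stood at 257 to 259 CPM at 0 h, then at 187 to 211 (12 h), 172 to 225 (48 h) and 157 to 199 (72 h). In WT it stood at 260.1 to 290 CPM at 0 h, then at 237 to 267 (12 h), 163 to 221 (48 h) and 166 to 202 (72 h). Only the WT libraries at 12 h overlapped the 0 h libraries of their own strain. YPS7 fell in cnb1Δ, with changes of −0.39 ± 0.12, −0.41 ± 0.12 and −0.58 ± 0.12 at 12, 48 and 72 h (edgeR adjusted p = 0.0144, 0.00654 and 0.000419). In WT its change at 12 h was −0.12 ± 0.12 (edgeR adjusted p = 0.403; 0.04 under total count scaling), and it fell at 48 h and 72 h, with −0.46 ± 0.12 and −0.53 ± 0.12 (edgeR adjusted p = 0.0026 and 0.000651). Those at 48 h and 72 h without the 4 late replicate 1 libraries were −0.39 and −0.52 in cnb1Δ and −0.31 and −0.46 in WT, all called (edgeR adjusted p = 0.000636 to 0.0193). YPS7 was also lower in WT at 72 h than at 12 h, with −0.41 ± 0.12 (edgeR adjusted p = 0.022), a call that ended without replicate 3 at 12 h (0.0854) or replicate 1 at 72 h (0.113).

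The size of the falls of MKC7 and YPS7 depended on the scaling. Under total count scaling the median change over all genes was 0.22, 0.29 and 0.34 in cnb1Δ at 12, 48 and 72 h, and 0.18, 0.38 and 0.38 in WT, where TMM scaling held it between 0.01 and 0.08. A change is thus read against that median. Under that scaling the YPS7 change was −0.18 in cnb1Δ at 12 h, −0.18 in cnb1Δ at 48 h and −0.15 in WT at 48 h, and these calls ended (edgeR adjusted p = 0.0734, 0.0677 and 0.108), as they did in limma on TPM values. At 72 h the YPS7 change was −0.29 in cnb1Δ and −0.24 in WT, and remained called. MKC7 stood at −0.54 in cnb1Δ and −0.51 in WT at 72 h and at −0.35 in WT at 48 h, and YPS1 in WT at 0.67 at 12 h and 0.61 at 48 h, where it was called (edgeR adjusted p = 0.0137 and 0.0171). YPS3 in cnb1Δ at 48 h stood at 0.53 (edgeR adjusted p = 0.0249). The cnb1Δ call of YPS7 at 12 h also ended without replicate 2 of cnb1Δ at 12 h (edgeR adjusted p = 0.0577).

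YPS5 and YPS6 were the least abundant members. YPS6 (YIR039C, chromosome IX, 430498 to 432111, minus strand) encodes a putative GPI-anchored yapsin of 537 codons, and YPS5 (YGL259W, chromosome VII, 8470 to 8967, plus strand) a reading frame of 165 codons, where the other members have 508 to 596. YPS6 lies 7.8 kb and YPS5 8.5 kb from a chromosome end, and the other members 357.8 kb or more. The 498 coding bases of YPS5 are 94.2% identical to the start of YPS6, with 29 differing bases and a longest shared run of 113 bases. Every other pair of members had 55.6% to 64.1% identity and a longest shared run of at most 14 bases. The start regions of both are shown because they are nearly the same sequence, at chrVII:8220-8519, plus strand, for YPS5 and chrIX:432062-432361, minus strand, for YPS6 (RefSeq, R64). Capitals mark the bases that differ or face a gap in the alignment of the pair, 4 differing bases and 4 gap bases over 298 aligned bases (98.7% identity).
YPS5: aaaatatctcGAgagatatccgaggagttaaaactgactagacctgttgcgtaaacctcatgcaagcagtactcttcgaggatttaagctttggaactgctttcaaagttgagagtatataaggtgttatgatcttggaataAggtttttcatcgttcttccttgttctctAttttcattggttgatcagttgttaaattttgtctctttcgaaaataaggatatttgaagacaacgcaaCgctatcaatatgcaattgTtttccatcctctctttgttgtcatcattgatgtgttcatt
YPS6: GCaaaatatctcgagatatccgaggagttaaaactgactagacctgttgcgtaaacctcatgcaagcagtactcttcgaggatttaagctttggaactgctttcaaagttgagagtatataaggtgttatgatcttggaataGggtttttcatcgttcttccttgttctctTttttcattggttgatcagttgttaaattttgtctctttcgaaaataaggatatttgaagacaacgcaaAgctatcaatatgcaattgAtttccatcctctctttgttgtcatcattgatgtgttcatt

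The likeness goes beyond the genes. To the bases from −2250 to 1128, counted from the YPS6 start, chromosome VII holds a counterpart that is 90.7% identical over 3391 aligned bases, and a further stretch of 81.8% identity over 352 bases follows. Neither read length nor how reads with several matches were counted is given in the sources used here, so reads from the genes of the pair cannot be told apart with certainty, and their separate values are uncertain. YPS5 had 2.26% to 29.09% of the YPS6 count in a library, with a median of 10.64%. Replicate 2 had the highest share in every group but cnb1Δ at 12 h, where it had the lowest, and the reason was not tested.

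**Figure D3:**
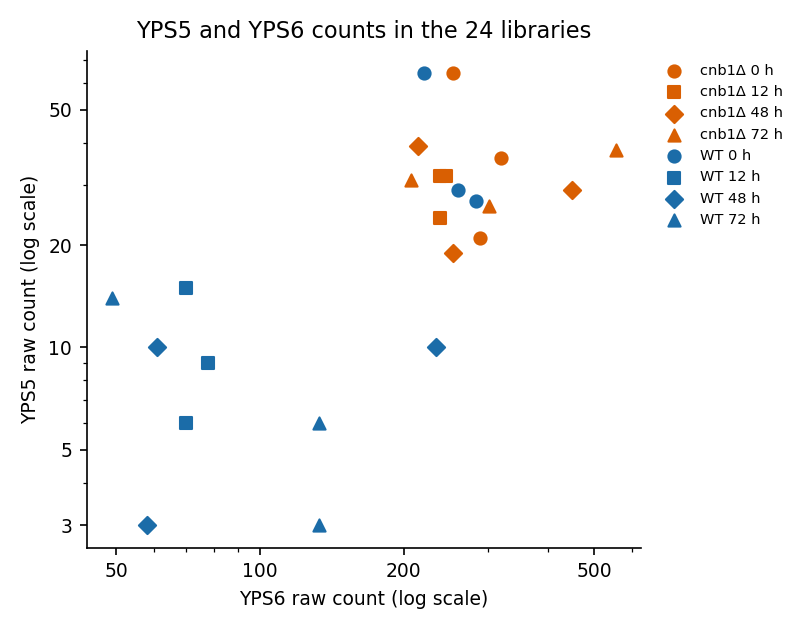
Raw counts of YPS5 (vertical, log scale) against YPS6 (horizontal, log scale) in the 24 libraries, by strain (colour) and hours in CaCl2 (shape). YPS5 has 19 to 64 counts in the 12 cnb1Δ libraries, 3 to 15 in the 9 WT libraries in CaCl2 and 27 to 64 in the 3 WT libraries at 0 h. YPS6 has 234 counts in replicate 1 of WT at 48 h and 49 to 133 in the other WT libraries in CaCl2.

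YPS6 had 320, 253 and 288 raw counts in cnb1Δ at 0 h, then 245, 238 and 238 (12 h), 449, 214 and 253 (48 h) and 555, 207 and 301 (72 h). In WT it had 283, 220 and 259 raw counts at 0 h, then 78, 70 and 70 (12 h), 234, 61 and 58 (48 h) and 133, 49 and 133 (72 h). All WT libraries in CaCl2 were below those at 0 h on the CPM scale, where replicate 1 at 48 h came nearest (9.10 CPM, against 11.4 CPM in the lowest at 0 h). At 48 h and 72 h replicate 1 was the highest library of cnb1Δ, and at 48 h also of WT.

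In cnb1Δ the changes of YPS6 were −0.51 ± 0.41, −0.24 ± 0.40 and −0.07 ± 0.40 at 12, 48 and 72 h (edgeR adjusted p = 0.32, 0.626 and 0.89), and at 72 h it was 0.24 under total count scaling. The later changes without the 4 late replicate 1 libraries were −0.61 at 48 h and −0.52 at 72 h (edgeR adjusted p = 0.0511 and 0.0935), and leaving out 1 library placed the 72 h change between −0.50 and 0.21. With the compared groups alone fitted it was called at 12 h (−0.52, edgeR adjusted p = 0.00782). In WT it fell, with changes of −1.95 ± 0.44, −1.46 ± 0.42 and −1.57 ± 0.43 at 12, 48 and 72 h (edgeR adjusted p = 0.00119, 0.00538 and 0.00319). Its level was thus 3.87-fold, 2.76-fold and 2.97-fold lower than at 0 h. Without the 4 late replicate 1 libraries the changes at 48 h and 72 h were −2.28 and −1.75 (edgeR adjusted p = 5.74e-06 and 4.33e-05), and without replicate 1 of WT at 48 h alone that at 48 h was −2.31 (edgeR adjusted p = 9.29e-05).

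YPS5 had 36, 64 and 21 raw counts in cnb1Δ at 0 h, then 32, 24 and 32 (12 h), 29, 39 and 19 (48 h) and 38, 31 and 26 (72 h). In WT it had 27, 64 and 29 raw counts at 0 h, then 9, 15 and 6 (12 h), 10, 10 and 3 (48 h) and 6, 14 and 3 (72 h). The cnb1Δ groups summed to 121, 88, 87 and 95 counts in order of time and the WT groups to 120, 30, 23 and 23. The exact 95% Poisson interval of the last sum was 76.9 to 116 counts in cnb1Δ and 14.6 to 34.5 counts in WT, which covers counting error only. Every WT library in CaCl2 was below every other library.

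In cnb1Δ the changes of YPS5 were −0.68 ± 0.43, −0.78 ± 0.43 and −0.68 ± 0.43 (edgeR adjusted p = 0.209, 0.129 and 0.173). Leaving out 1 library placed them between −0.94 and −0.24 (12 h), −1.05 and −0.34 (48 h) and −0.95 and −0.24 (72 h), the smallest each time without replicate 2 of cnb1Δ at 0 h, and none was called. The 48 h and 72 h changes were −0.78 and −0.82 without the 4 late replicate 1 libraries. In WT it fell, with changes of −2.13 ± 0.48, −2.65 ± 0.50 and −2.64 ± 0.50 at 12, 48 and 72 h (edgeR adjusted p = 0.00127, 0.000139 and 0.000129), so that it was 4.38-fold, 6.29-fold and 6.25-fold lower than at 0 h. Leaving out 1 library placed these changes between −2.50 and −1.65 (12 h), −2.94 and −2.17 (48 h) and −3.41 and −2.16 (72 h), all called. In limma on log2(TPM + 1), a scale that understates changes of low genes, the WT changes were −1.13, −1.28 and −1.31 and remained called. With edgeR and without the 4 late replicate 1 libraries they were −2.78 and −2.47 at 48 h and 72 h (edgeR adjusted p = 0.000957 and 0.00152). With the counts of the pair summed, a setting chosen after seeing the data, the WT changes were −1.98, −1.58 and −1.68 (edgeR adjusted p = 0.00041, 0.00132 and 0.000763). YGL258W-A, an annotated reading frame 194 bases from YPS5 inside the copied stretch, had 2 to 37 counts, changed in WT by −1.65 at 12 h and −2.25 at 72 h (edgeR adjusted p = 0.0102 and 0.000907), and was higher in cnb1Δ than in WT by 1.59 and 1.77 at those times (edgeR adjusted p = 0.0322 and 0.0398).

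Against 0 h a large share of all genes was called, and the members' counts stand beside it. In cnb1Δ 2 of 6 members were called at each time, YPS3 (higher) and YPS7 (lower) at 12 h and MKC7 and YPS7 (lower) at the later times. Of all genes 42.4% were called there at 12 h (22.1% higher and 20.2% lower), 55.3% at 48 h (26.4% lower) and 59.7% at 72 h (28% lower). At 12 h 3 members were called in WT, 1 higher and 2 lower, where 47.1% of all genes were (24.6% higher and 22.4% lower). At 48 h 5 were called in WT, 1 higher and 4 lower, where 63.7% of all genes were (33.7% higher and 30% lower). At 72 h 2 were higher and 4 lower in WT, where 34.7% of all genes were higher and 29.8% lower. Of the called genes 52.3%, 52.2% and 53.0% were higher in cnb1Δ at 12, 48 and 72 h, and 77.6%, 73.0% and 73.8% under total count scaling. In WT these shares were 52.3%, 53.0% and 53.8%, and 70.1%, 73.8% and 71.9% under total count scaling. For 72 h against 12 h 1 member was called in each strain, YPS3 (lower) in cnb1Δ, where 20.3% of all genes were (10.3% lower), and YPS7 (lower) in WT, where 23.2% were (11% lower). Libraries in CaCl2 and at 0 h did not overlap for 5, 3 and 3 members in cnb1Δ at 12, 48 and 72 h, and for 66.7%, 67.2% and 69.1% of all genes. In WT they did not overlap for 4, 5 and 6 members, and for 63.1%, 63.2% and 70.4% of all genes.

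At 0 h no member was called between cnb1Δ and WT with edgeR, 0 had an unadjusted p under 0.05 and DESeq2 called 0, where edgeR called 0.032% of all genes. YPS1 stood at −0.39 ± 0.21 (edgeR adjusted p = 1), with 197 to 228 CPM in cnb1Δ and 267 to 307 CPM in WT. With the replicate number as a block, it was −0.37 and called (edgeR adjusted p = 0.0062). YPS1, YPS3 and YPS7 had no overlap between the strains at 0 h, as had 19.3% of all genes tested.

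In CaCl2 YPS1 was lower in cnb1Δ than in WT at each time, with log2 fold changes of −1.37 ± 0.22 at 12 h, −1.13 ± 0.22 at 48 h and −1.54 ± 0.22 at 72 h (2.58-fold, 2.18-fold and 2.92-fold lower; edgeR adjusted p = 0.000273, 0.00402 and 0.000127). YPS3 was lower too, with −1.48 ± 0.24, −1.51 ± 0.24 and −2.24 ± 0.25 (2.79-fold, 2.85-fold and 4.71-fold lower; edgeR adjusted p = 0.00033, 0.000981 and 7.07e-06). For both genes every cnb1Δ library was below every WT library at each of these times. At 48 h both calls ended when the compared groups alone were fitted (−1.14 and −1.52, edgeR adjusted p = 0.159 for YPS1 and 0.132 for YPS3), where 5 of all genes were called. With the replicate number as a block in that fit both were called (−1.11 and −1.501, edgeR adjusted p = 0.0362 for both). Leaving out the 4 late replicate 1 libraries gave, at 48 h and 72 h, −1.04 and −1.699 for YPS1 (edgeR adjusted p = 0.0167 and 0.000333) and −1.75 and −2.42 for YPS3 (edgeR adjusted p = 0.000222 and 4.5e-06).

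YPS6 was higher in cnb1Δ than in WT by 1.64 ± 0.43 at 12 h and by 1.71 ± 0.42 at 72 h (3.13-fold and 3.27-fold; edgeR adjusted p = 0.0136 and 0.0141). At 48 h it stood at 1.42 ± 0.42 (edgeR adjusted p = 0.0566), with 18.95, 8.86 and 11.6 CPM in cnb1Δ and 9.10, 2.82 and 2.63 CPM in WT. Without the 4 late replicate 1 libraries it was 1.88 at 48 h (edgeR adjusted p = 0.00182), and without replicate 1 of WT at 48 h alone 2.27 (edgeR adjusted p = 0.00254). The call at 12 h ended without replicate 2 of WT at 12 h (edgeR adjusted p = 0.0505), and that at 72 h without replicate 1 of cnb1Δ (1.27, edgeR adjusted p = 0.0815) or replicate 2 of WT at 72 h (1.38, edgeR adjusted p = 0.0617). From the compared groups alone the 72 h call ended (1.72, edgeR adjusted p = 0.0929), and with the replicate number as a block it was kept (1.72, edgeR adjusted p = 0.00012). At 48 h the block gave 1.57 (edgeR adjusted p = 0.0508), and DESeq2 called the 48 h difference (adjusted p = 0.0106).

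YPS5 was higher in cnb1Δ than in WT by 1.47 ± 0.49 at 12 h, 1.89 ± 0.51 at 48 h and 1.98 ± 0.50 at 72 h (edgeR adjusted p = 0.0466, 0.0349 and 0.0163). When fitted on the compared groups alone those at 48 h and 72 h ended (1.87 and 1.99, edgeR adjusted p = 0.236 and 0.0723), and limma on log2(TPM + 1) gave adjusted p of 0.049, 0.0682 and 0.0189 at 12, 48 and 72 h. With the replicate number as a block that at 48 h ended (1.91, edgeR adjusted p = 0.114) and that at 72 h was called (2.02, edgeR adjusted p = 0.00454). Without the 4 late replicate 1 libraries those at 48 h and 72 h ended (2.03 and 1.68, edgeR adjusted p = 0.0802 and 0.122). Without 1 library, 5 of 6 omissions ended the call at 12 h (replicate 1, 2 or 3 of cnb1Δ and 1 or 3 of WT), 3 that at 48 h (replicate 1 or 2 of cnb1Δ and 3 of WT) and 2 that at 72 h (replicate 1 or 3 of WT), with edgeR adjusted p of 0.0621 to 0.167. With the counts of the pair summed the differences were 1.63, 1.46 and 1.73 at 12, 48 and 72 h (edgeR adjusted p = 0.00706, 0.028 and 0.00624).

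**Figure D4:**
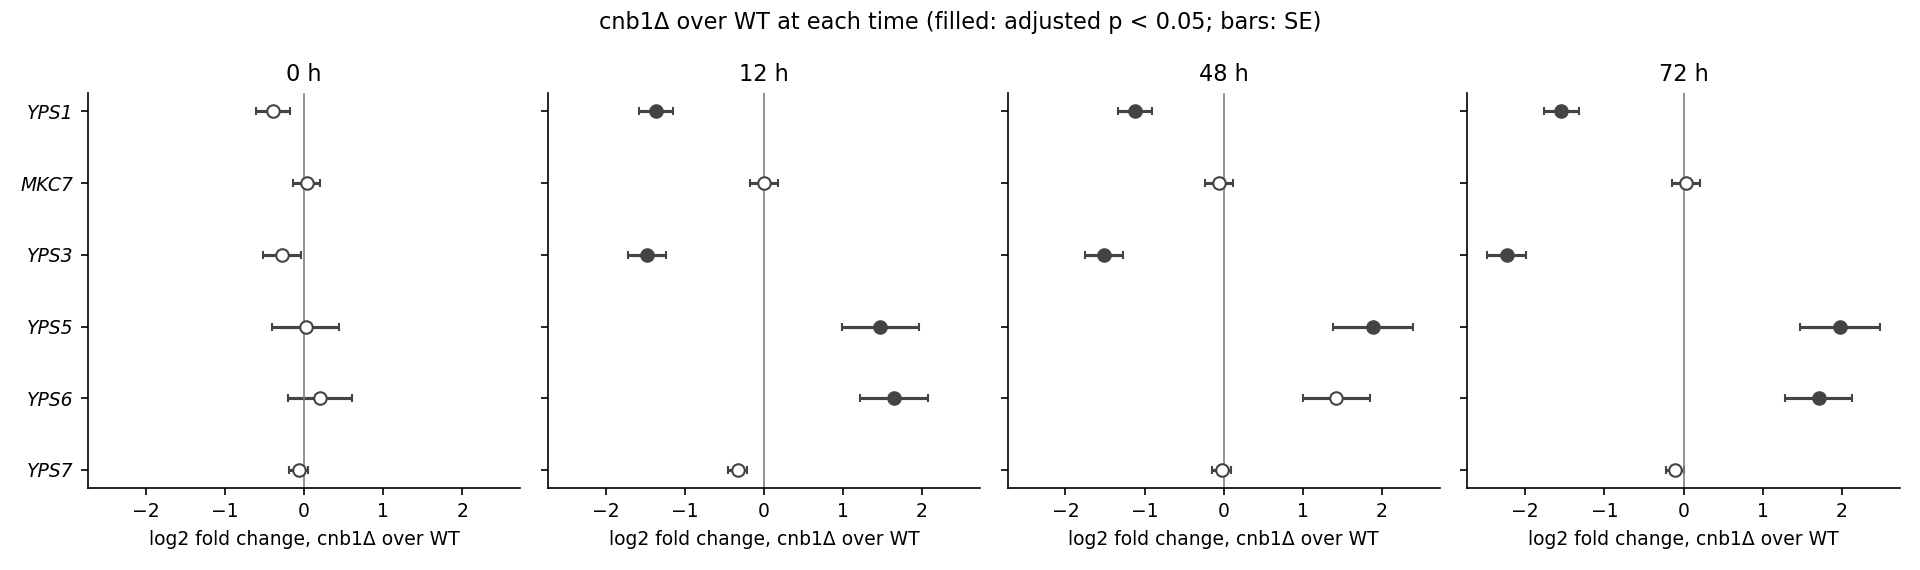
Log2 fold change of cnb1Δ over WT (horizontal axes) for each yapsin gene at 0, 12, 48 and 72 h. Bars are SE, filled points have an edgeR adjusted p under 0.05 and open points do not. In CaCl2 YPS1 and YPS3 lie left of 0 and YPS5 and YPS6 right of it, while MKC7 and YPS7 lie within 0.33 of 0.

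MKC7 did not differ detectably between the strains, with 0.00 ± 0.17, −0.06 ± 0.18 and 0.03 ± 0.18 at 12, 48 and 72 h (edgeR adjusted p = 0.991, 0.934 and 0.949). YPS7 stood at −0.33 ± 0.12, −0.02 ± 0.12 and −0.11 ± 0.12 (edgeR adjusted p = 0.0677, 0.962 and 0.653), and was called at 12 h when the compared groups alone were fitted (edgeR adjusted p = 0.0374). In all, 2 members were lower and 2 higher in cnb1Δ at 12 h, where 15.4% of all genes were called and 6.96% of all genes were lower and 8.43% higher. At 48 h 2 were lower and 1 higher, where 4.89% of all genes were called, 2.19% lower and 2.7% higher. At 72 h 2 were lower and 2 higher, where 4.45% and 4.67% of all genes were. The 2 higher members at 12 h and 72 h were YPS5 and YPS6. Their reads cannot be told apart with certainty, so these may not be separate calls. The libraries of the strains did not overlap for 5, 3 and 4 members at 12, 48 and 72 h, and for 41.3%, 16.1% and 23.2% of all genes. At 12 h 54.8% of the called genes were higher in cnb1Δ, against 72.6% under total count scaling, which left the 4 members called.

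A difference between the strains in CaCl2 does not itself show that their responses from 0 h differed, and that difference was tested as an interaction. The YPS3 response in cnb1Δ lay below that in WT, with a difference of −1.95 ± 0.34 at 72 h (edgeR adjusted p = 0.00694), with a change of −0.13 in cnb1Δ and 1.82 in WT. Of all genes 1.04% were called there (0.624% lower). It was called without each library in turn (−2.16 to −1.83, edgeR adjusted p = 0.00162 to 0.0266). No other member was called at 72 h. YPS1 stood at −1.15 ± 0.30 (edgeR adjusted p = 0.0704), YPS5 at 1.96 ± 0.66 (0.179) and YPS6 at 1.502 ± 0.58 (0.267). Fitted on the compared groups alone with the replicate number as a block, all 3 were called (edgeR adjusted p = 0.00547, 0.0473 and 0.0307). YPS1 was called with DESeq2 too (adjusted p = 0.0134), and without the 4 late replicate 1 libraries YPS1 was (−1.32, edgeR adjusted p = 0.031).

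At 12 h the interaction of YPS3 was −1.20 ± 0.34 (edgeR adjusted p = 0.0767) and that of YPS1 −0.98 ± 0.30 (0.111). For YPS5 it was 1.45 ± 0.65 (edgeR adjusted p = 0.308) and for YPS6 1.44 ± 0.59 (0.263). edgeR called 0 members there, where 1.82% of all genes were called (0.976% higher and 0.848% lower). Of the members 4 had an unadjusted edgeR p under 0.05, and the share of all genes under it was not counted. DESeq2 called 2 members, YPS1 and YPS3 (adjusted p = 0.045 and 0.0255), and 230 of all genes, against 114 with edgeR. Fitted on the compared groups alone YPS1, YPS3 and YPS6 were called (edgeR adjusted p = 0.0413, 0.00755 and 0.000775). Without the 4 late replicate 1 libraries YPS3 and YPS6 were (edgeR adjusted p = 0.00941 and 0.0173), and without replicate 2 of WT at 12 h YPS1 was (−1.22, edgeR adjusted p = 0.0226). At 48 h edgeR and DESeq2 called 0 members, where edgeR called 0.192% of all genes (12 genes) and DESeq2 42 genes. An unadjusted edgeR p under 0.05 was found for 4 members, and the share of all genes under it was not counted. There YPS3 stood at −1.23 ± 0.34 (edgeR adjusted p = 0.165), and it was called without the 4 late replicate 1 libraries (−1.48, edgeR adjusted p = 0.03) or without replicate 1 of WT at 48 h (−1.45, edgeR adjusted p = 0.045).

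To compare levels between members, the TPM values that the authors deposited, which are scaled by transcript length and depth, were used. In cnb1Δ the 6 members together averaged 314 ± 8.74 TPM at 0 h, 289 ± 18.4 at 12 h, 268 ± 18.2 at 48 h and 259 ± 17.4 at 72 h (SD, n = 3). In WT they averaged 329 ± 25.8, 459 ± 72.0, 415 ± 41.0 and 463 ± 43.4 TPM. These totals carry no TMM adjustment. Under total count scaling, which lacks it too, the median change over all genes at 72 h was 0.34 in cnb1Δ and 0.38 in WT. With TMM it was 0.05 and 0.08, so changes of the family total over time depend on the scaling. At 0 h YPS7, YPS1 and MKC7 were the largest in both strains, with 34.4%, 30.0% and 26.1% of the family's TPM in cnb1Δ and 32.3%, 35.3% and 22.9% in WT. YPS3 had 6.15% in cnb1Δ and 6.72% in WT, YPS6 had 2.30% and 1.79%, and YPS5 1.02% and 0.90%.

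The make-up diverged in CaCl2. YPS1 and YPS3 together held 36.2%, 39.3%, 39.8% and 40.3% of the family's TPM in cnb1Δ in order of time, and 42.1%, 60.2%, 61.2% and 68.9% in WT. At 72 h YPS1 alone held 32.1 ± 3.39% in cnb1Δ and 48.8 ± 4.25% in WT, and YPS3 8.20 ± 0.87% and 20.1 ± 2.80%. YPS7 held 33.8 ± 1.90% in cnb1Δ and 19.2 ± 1.58% in WT, though its own level was alike, at 87.3 TPM in cnb1Δ and 88.7 TPM in WT. YPS6 averaged 8.54 TPM in cnb1Δ and 2.399 TPM in WT at 72 h, and YPS5 2.44 and 0.57 TPM. The TPM ratio of YPS1 to YPS3 in order of time was 4.89, 2.27, 2.92 and 3.94 in cnb1Δ, and 5.28, 2.04, 2.46 and 2.48 in WT.

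**Figure D5:**
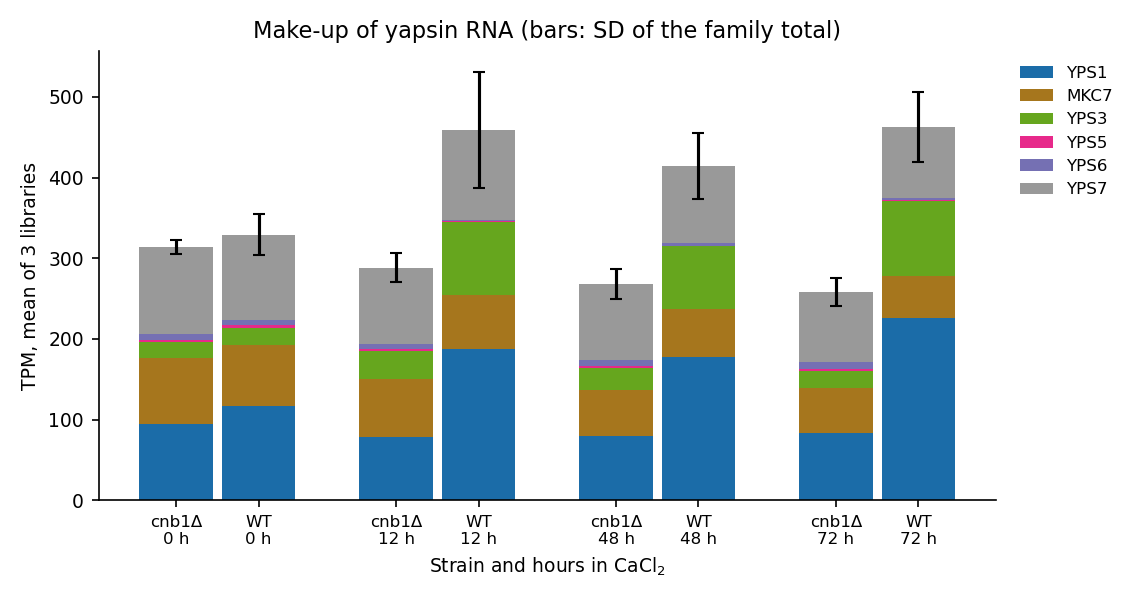
TPM of the 6 yapsin genes stacked (vertical axis, mean of 3 libraries) in cnb1Δ and WT at each time in CaCl2 (horizontal axis). Whiskers are the SD of the family total. TPM values carry no TMM adjustment, so changes over time depend on the scaling. The total is 259 TPM in cnb1Δ and 463 TPM in WT at 72 h, where YPS1 and YPS3 together hold 40.3% of it in cnb1Δ and 68.9% in WT.

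Other genes of the surface and of protein processing were followed in 4 lists. Beside the counts at 72 h against 0 h stand 31.6% of all genes higher and 28% lower in cnb1Δ, and 34.7% higher and 29.8% lower in WT. Beside the counts of cnb1Δ against WT stand 8.43% of all genes higher and 6.96% lower at 12 h, and 4.67% higher and 4.45% lower at 72 h. Of 13 secretory and vacuolar proteases, 3 were higher and 6 lower at 72 h in cnb1Δ (median −0.33, against 0.05 over all genes), and 3 were higher and 6 lower in WT (median −0.30, against 0.08). PRB1, the vacuolar protease B gene, stood at 2.52 ± 0.49 in cnb1Δ and 3.65 ± 0.51 in WT (edgeR adjusted p = 0.000228 and 5e-06). BAR1, which encodes the secreted aspartyl protease that degrades the pheromone alpha-factor, stood at −2.42 ± 0.30 in cnb1Δ and −3.98 ± 0.32 in WT (edgeR adjusted p = 2.19e-06 and 9.31e-09). Between the strains BAR1 was higher in cnb1Δ by 1.42 ± 0.29 at 12 h and 1.34 ± 0.30 at 72 h (edgeR adjusted p = 0.0024 and 0.0065), the only called member at 12 h and with CPS1 (−0.60 ± 0.16) the only ones at 72 h.

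Of 21 genes listed as output or parts of the cell wall integrity pathway, 5 were higher and 3 lower in cnb1Δ than in WT at 12 h. At 72 h 5 were higher and 5 lower (median 0.27, against −0.02 over all genes). Of all genes 8.43% were higher and 6.96% lower in cnb1Δ at 12 h, and 4.67% higher and 4.45% lower at 72 h. CWP1, a wall mannoprotein gene, was higher by 3.03 ± 0.28 at 72 h (edgeR adjusted p = 8.1e-07). GSC2, for a catalytic subunit of glucan synthase, was lower, with a change of −2.69 ± 0.31 (edgeR adjusted p = 1.11e-05). Called members of this list lay on both sides. Of 26 genes of GPI anchor synthesis and attachment, 0 were higher and 2 lower in cnb1Δ at 72 h (median −0.07), GPI18 (−0.87 ± 0.15) and MCD4 (−0.40 ± 0.12; edgeR adjusted p = 0.000783 and 0.0374). Against 0 h, 1 of these was higher and 10 lower in cnb1Δ at 72 h (median −0.23, against 0.05 over all genes), and 2 higher and 12 lower in WT (median −0.26, against 0.08). Of 11 GPI-anchored glucan-remodelling enzymes, 0 were higher and 2 lower in cnb1Δ than in WT at 72 h (median −0.10), CRH1, a chitin and glucan cross-linking enzyme gene also on the wall list (−0.83 ± 0.15), and DFG5 (−0.60 ± 0.08; edgeR adjusted p = 0.00135 and 5.87e-05).

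The genes most like each member were ranked by Pearson's r of log2 CPM over the 24 libraries. These libraries share strain, time and replicate structure, so r is a description without a test. For YPS1 the highest were HUA1 (0.976), CSG2 (0.942) and NPT1 (0.939). For YPS3 they were KRE6 (0.933), which acts in beta-glucan synthesis, TOS1 (0.930) and HAC1 (0.906). For MKC7 they were AAT1 (0.973), DED81 (0.972) and ASN2 (0.970), and for YPS7 SEC14 (0.966), TOK1 (0.959) and GDA1 (0.958). For YPS5 they were FZO1 (0.892), DBF2 (0.882) and EHD3 (0.879), and for YPS6 GUT2 (0.919), YRO2 (0.911) and MGP12 (0.891). Among the members themselves MKC7 and YPS7 had 0.87, YPS1 and YPS3 0.79 and YPS5 and YPS6 0.71. YPS3 had −0.87 with YPS6 and −0.84 with YPS5.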

How the data were processed

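RNA from 24 yeast libraries was measured. The authors deposited raw read counts per gene and TPM values, whole-number counts for 7126 genes and TPM for 6744. Per the submitters' processing notes, featureCounts, DESeq2 and build R64 were used, with no tool versions. The aligner, annotation release, strand setting and treatment of reads matching several places were not given in the sources that were used. Members and gene lists were chosen with earlier results of these data known.

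Genes were filtered with filterByExpr, scaled by TMM and tested with edgeR 4.0.16 (R 4.3.3) by quasi-likelihood F tests, in 1 model of 8 group means over 24 libraries with 16 residual degrees of freedom. The tests are two-sided, with Benjamini-Hochberg adjustment within each of 15 comparisons. The SE is the absolute log2 fold change over the square root of F. Log2 CPM used a prior count of 2. The test was checked on simulated counts in which a small share of genes changed, in WT at 12 h only. These counts had no shared replicate deviations, so the check covers neither such deviations nor changes of many genes. DESeq2 1.42.0, limma 3.58.1 on deposited TPM (pseudocount 1 or 0.1), other scalings and filters, smaller fits, the replicate block and omissions of libraries were alternatives. Named genes were all members, up to 4 called genes per list and comparison, the 3 most similar genes per member, neighbours and label checks.

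Replicates differed by more than sampling noise in each group (chi-square per degree of freedom 4.61 to 324). Replicate numbers in the titles paired the libraries where all 3 correlations of their deviations passed 0.1. These lay between 0.228 and 0.396 for the 12 h comparison in WT, and in the strain comparisons between 0.193 and 0.229 (0 h), 0.162 and 0.569 (48 h) and 0.314 and 0.689 (72 h). Sequences were read from RefSeq R64 and compared with Biopython 1.88 and blastn 2.17.0.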

Additional observations from a re-analysis of the deposited data

Results flagged for a closer look

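The YPS3 response at 72 h in CaCl2 differed between the strains by a test of the difference itself. The response in cnb1Δ lay below that in WT, with a difference of −1.95 ± 0.34 on the log2 scale (edgeR adjusted p = 0.00694, n = 3 libraries in each of 4 groups). All 3 WT libraries at 72 h lay above the WT libraries at 0 h, and the cnb1Δ libraries at 72 h overlapped those at 0 h. What underlies this difference was not tested.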

How the results depend on the processing

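The alternatives other than leaving out a library gave 858 member values with the same direction and side of the threshold, 64 that became called, 24 that lost a call and 42 that changed sign, all uncalled. Leaving out 1 library gave 571, 8, 24 and 45. The block was fitted on the compared groups alone. Where replicate numbers paired the libraries, that fit changed the calls of YPS1 and MKC7 for WT at 12 h. It also changed those of YPS1 for the strains at 0 h and YPS5 for the strains at 48 h, and no other member call. Without the block the smaller fit called MKC7 too and ended the same YPS5 call (edgeR adjusted p = 0.0222 and 0.236). The labels do not say that a number follows 1 culture through its time course, and in the other comparisons not all correlations passed 0.1. There the blocked fit made calls of YPS1, MKC7 and YPS6 for cnb1Δ at 12 h, and of YPS1, YPS3 and YPS5 for cnb1Δ at 48 h. It also called YPS1 for cnb1Δ at 72 h, MKC7 for cnb1Δ at 72 h over 12 h and YPS7 for the strains at 12 h. These calls had edgeR adjusted p = 0.000119 to 0.0477, and no call ended. Without the block the smaller fit did not call YPS3 and YPS5 at 48 h or MKC7 at 72 h over 12 h. It made the other calls too (edgeR adjusted p = 0.000945 to 0.0374). YPS5 had 3 to 64 counts a library. Values in brackets after a count are from the edgeR model of 8 group means over 24 libraries. The cause of these changes was not tested.

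Fitted on the compared groups with a replicate block, the genes called numbered 846 for WT at 72 h over 12 h (1451), 4136 for cnb1Δ at 12 h (2649), 148 for the strains at 0 h (2), 1721 for the strains at 12 h (962), 61 for the strains at 48 h (306), 1103 for the strains at 72 h (570), 802 for the 12 h interaction (114) and 198 for the 72 h interaction (65), and the members called 5 for WT at 12 h (3), 5 for cnb1Δ at 12 h (2), 5 for cnb1Δ at 48 h (2), 2 for cnb1Δ at 72 h over 12 h (1), 1 for the strains at 0 h (0), 3 for the 12 h interaction (0) and 4 for the 72 h interaction (1). In that fit the genes called numbered 3583 for WT at 12 h (2944) and 3821 for cnb1Δ at 48 h (3460). For cnb1Δ at 72 h over 12 h they numbered 1151 (1267). YPS1, YPS5 and MKC7 had uncalled values of the other sign in that fit, with YPS1 at 0.0029 for cnb1Δ at 72 h over 12 h, YPS5 at 0.000906 for cnb1Δ at 72 h over 12 h and MKC7 at 0.0064 for the 72 h interaction. Fitted on the compared groups alone, the genes called numbered 836 for WT at 72 h over 12 h (1451), 15 for the strains at 0 h (2), 5 for the strains at 48 h (306), 182 for the strains at 72 h (570) and 525 for the 12 h interaction (114), and the members called 5 for cnb1Δ at 12 h (2), 0 for the strains at 48 h (3), 2 for the strains at 72 h (4), 3 for the 12 h interaction (0) and 2 for the 72 h interaction (1). The genes called in this fit numbered 3691 for cnb1Δ at 12 h (2649) and 79 for the 72 h interaction (65). MKC7 had uncalled values of the other sign in this fit, with MKC7 at 0.000269 for the 72 h interaction. Scaled to total counts, the genes called numbered 37 for the 72 h interaction (65), and the members called 1 for cnb1Δ at 12 h (2) and 1 for the 12 h interaction (0). Under that scaling the genes called numbered 2706 for cnb1Δ at 12 h (2649) and 93 for the 12 h interaction (114). YPS7, YPS3, YPS6, YPS1, YPS5 and MKC7 had uncalled values of the other sign under it, with YPS7 at 0.041 for WT at 12 h, 0.0075 for the strains at 0 h and −0.027 for the 48 h interaction, YPS3 at 0.093 for WT at 72 h over 12 h and 0.15 for cnb1Δ at 72 h, YPS6 at 0.000998 for cnb1Δ at 48 h and 0.24 for cnb1Δ at 72 h, YPS1 at 0.088 for cnb1Δ at 72 h over 12 h, YPS5 at 0.091 for cnb1Δ at 72 h over 12 h and MKC7 at 0.012 for the 12 h interaction. Without the 4 late replicate 1 libraries, the genes called numbered 1695 for the strains at 12 h (962), 524 for the strains at 48 h (306), 398 for the 12 h interaction (114), 26 for the 48 h interaction (12) and 191 for the 72 h interaction (65), and the members called 5 for WT at 12 h (3), 2 for the 12 h interaction (0), 1 for the 48 h interaction (0) and 2 for the 72 h interaction (1). For WT at 12 h 3636 genes were called without these libraries (2944). YPS3, YPS7 and MKC7 had uncalled values of the other sign without them, with YPS3 at 0.17 for WT at 72 h over 12 h, YPS7 at −0.074 for the 48 h interaction and MKC7 at 0.014 for the 72 h interaction. With DESeq2, the genes called numbered 230 for the 12 h interaction (114), 42 for the 48 h interaction (12) and 139 for the 72 h interaction (65), and the members called 2 for WT at 72 h over 12 h (1), 2 for the 12 h interaction (0) and 2 for the 72 h interaction (1). For WT at 72 h over 12 h DESeq2 called 1625 genes (1451). With a minimum mean of 10 CPM, the genes called numbered 1 for the strains at 0 h (2). With no filter, uncalled values of the other sign stood for MKC7 at 0.0018 for the 72 h interaction. In limma on log2(TPM + 1), with the filter or without it, the genes called numbered 1 for the strains at 0 h (2) and 39 for the 72 h interaction (65), and the members called 1 for cnb1Δ at 12 h (2) and 1 for the 12 h interaction (0). For cnb1Δ at 12 h 2604 genes were called with the filter and 2651 without it (2649). For the 12 h interaction 87 and 79 were (114). YPS7, YPS3, YPS6, YPS1 and YPS5 had uncalled values of the other sign on that scale, with YPS7 at 0.062 for WT at 12 h, 0.025 for the strains at 0 h and −0.054 for the 48 h interaction, YPS3 at 0.029 for WT at 72 h over 12 h and 0.12 for cnb1Δ at 72 h, YPS6 at 0.10 for cnb1Δ at 72 h, YPS1 at 0.074 for cnb1Δ at 72 h over 12 h and YPS5 at 0.053 for cnb1Δ at 72 h over 12 h. In limma on log2(TPM + 0.1), the genes called numbered 1 for the strains at 0 h (2) and 39 for the 72 h interaction (65), and the members called 1 for cnb1Δ at 12 h (2) and 1 for the 12 h interaction (0). On that scale 2556 genes were called for cnb1Δ at 12 h (2649) and 85 for the 12 h interaction (114). YPS7, YPS3, YPS6, YPS1 and YPS5 had uncalled values of the other sign on it, with YPS7 at 0.063 for WT at 12 h, 0.025 for the strains at 0 h and −0.055 for the 48 h interaction, YPS3 at 0.029 for WT at 72 h over 12 h and 0.13 for cnb1Δ at 72 h, YPS6 at 0.10 for cnb1Δ at 72 h, YPS1 at 0.075 for cnb1Δ at 72 h over 12 h and YPS5 at 0.070 for cnb1Δ at 72 h over 12 h.

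Leaving out 1 library at a time, the genes called ranged over 495 to 1665 for WT at 72 h over 12 h, 503 to 1142 for cnb1Δ at 72 h over 12 h, 555 to 751 for the strains at 12 h, 128 to 563 for the strains at 48 h, 285 to 495 for the strains at 72 h, 64 to 100 for the 12 h interaction, 5 to 20 for the 48 h interaction and 25 to 75 for the 72 h interaction. Over the same omissions the members called ranged over 0 to 2 for WT at 72 h over 12 h, 1 to 2 for cnb1Δ at 12 h, 0 to 1 for cnb1Δ at 72 h over 12 h, 0 to 1 for the 12 h interaction and 0 to 1 for the 48 h interaction. For the strains at 12 h 3 members were called in every omission (4). The members called ranged over 2 to 4 for the strains at 48 h (3) and 3 to 4 at 72 h (4). In WT they ranged over 3 to 4 at 12 h (3) and 5 to 6 at 48 h (5). Over these omissions 2339 to 2861 genes were called for WT at 12 h and 3547 to 3995 for WT at 48 h. For cnb1Δ at 12 h 1960 to 2225 genes were called. Uncalled log2 fold changes that took either sign spanned, for YPS3 −0.19 to 0.17 for WT at 72 h over 12 h, YPS1 −0.070 to 0.35 for WT at 72 h over 12 h, YPS6 −0.50 to 0.21 for cnb1Δ at 72 h, YPS1 −0.12 to 0.064 for cnb1Δ at 72 h over 12 h, YPS5 −0.16 to 0.094 for cnb1Δ at 72 h over 12 h, MKC7 −0.012 to 0.084 for the strains at 0 h, YPS5 −0.42 to 0.51 for the strains at 0 h and MKC7 −0.078 to 0.14 for the strains at 12 h. They also spanned, for MKC7 −0.23 to 0.12 for the strains at 48 h, YPS7 −0.16 to 0.066 for the strains at 48 h, MKC7 −0.096 to 0.24 for the strains at 72 h, MKC7 −0.11 to 0.11 for the 12 h interaction, MKC7 −0.26 to 0.083 for the 48 h interaction, YPS7 −0.12 to 0.13 for the 48 h interaction, MKC7 −0.13 to 0.20 for the 72 h interaction and YPS7 −0.15 to 0.024 for the 72 h interaction.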
